A study of Mus musculus with 8 samples.

Results

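The IL-1 family cytokines and their antagonists were followed here through 6 genes, Il1a, Il1b, Il1rn, Il18, Il18bp and Il1rap, of the 55801 genes in the deposited expression table. The members were found in the table by symbol, and each symbol had 1 row. All 6 were among the 12189 genes with a mean of at least 1 TPM (a transcript level corrected for length and scaled to the same total in every sample), which were tested.

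Peritoneal macrophages were taken from male C57BL/6 mice of 6 to 8 weeks, 72 h after an injection of thioglycollate, which draws macrophages into the peritoneal cavity. All 4 groups thus share the elicitation, and each held 2 samples. The vehicle group (NC, labelled CTRL and DMSO) received the solvent DMSO, the LPS group received solvent and then lipopolysaccharide, a bacterial cell wall component, at 100 ng/ml for 4 h, the C498 group received the compound C498 at 15 µM, and the C498+LPS group received C498 for 0.5 h before the same LPS. C498 was selected in a reporter screen for compounds that lower JAK/STAT and NFκB activity, and the comparisons ask how it alters the response to LPS. The labels do not say whether the 2 samples of a group came from separate mice, so p-values measure only the spread between these samples, which may be technical.

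IL-1α and IL-1β, the products of Il1a and Il1b, signal through the same receptor, IL-1R1, which needs the accessory protein encoded by Il1rap, and the signal runs through MyD88 to NFκB. Il1rn encodes the IL-1 receptor antagonist, which occupies IL-1R1 without recruiting the accessory protein, and Il18bp encodes a soluble protein that captures IL-18. Pro-IL-1β and pro-IL-18 are cut to their active forms by caspase-1 within an inflammasome, so transcript levels alone do not give the amount of active cytokine, which was not measured in these data.

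Positions are from GENCODE M21 on GRCm38. Il1a (ENSMUSG00000027399) lies at chr2:129299610-129309972 and Il1b (ENSMUSG00000027398) at chr2:129364570-129371139, both on the minus strand and 54597 bases apart. Il1rn (ENSMUSG00000026981) lies on the plus strand of the same chromosome at chr2:24336853-24351494. Il18 (ENSMUSG00000039217) is at chr9:50554827-50581840 on the plus strand, Il18bp (ENSMUSG00000070427) at chr7:102014885-102018690 on the minus strand, and Il1rap (ENSMUSG00000022514) at chr16:26581704-26730117 on the plus strand. Il18bp overlaps Numa1 on the opposite strand by 80 bases, and Il1b overlaps its antisense gene Il1bos by 1243 bases. Il1a overlaps Gm14023 by 8217 bases, Il18 overlaps Tex12 by 4507 and Bco2 by 355 bases, and Il1rap overlaps Gm20319 by 15672 bases, all on the opposite strand. Whether strand was used in counting is not stated, so reads of these pairs may not be told apart. Numa1 was listed at 13.84 to 30.95 TPM, and the other overlapping genes at no more than 3.24 TPM in any sample.

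The 250 bases before the transcript start of Il1a, Il1b and Il1rn are printed because these 3 genes had the highest levels of the members after LPS. They are from RefSeq on GRCm38.p6, 5′ to 3′ on the strand of the gene, with capitals marking the motifs searched for that were found.
Il1a, chr2:129309973-129310222, minus strand: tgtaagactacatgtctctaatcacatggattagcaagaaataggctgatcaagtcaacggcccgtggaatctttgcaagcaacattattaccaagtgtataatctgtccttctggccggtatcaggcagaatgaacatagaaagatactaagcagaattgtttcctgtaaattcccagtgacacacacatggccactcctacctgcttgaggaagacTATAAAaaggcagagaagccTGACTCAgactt
Il1b, chr2:129371140-129371389, minus strand: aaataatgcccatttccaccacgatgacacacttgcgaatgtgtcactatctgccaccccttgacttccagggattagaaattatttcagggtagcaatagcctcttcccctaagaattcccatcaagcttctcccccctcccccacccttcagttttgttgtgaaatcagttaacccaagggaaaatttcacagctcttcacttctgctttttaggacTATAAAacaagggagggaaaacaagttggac
Il1rn, chr2:24336610-24336859, plus strand, the first of its listed starts: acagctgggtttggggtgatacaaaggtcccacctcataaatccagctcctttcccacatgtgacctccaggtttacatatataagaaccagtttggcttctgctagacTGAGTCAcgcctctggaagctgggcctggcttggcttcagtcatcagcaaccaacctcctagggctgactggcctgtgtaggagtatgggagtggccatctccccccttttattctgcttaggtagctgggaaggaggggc

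In these windows the Il1a and Il1b sequences each held TATAAA, a core promoter hexamer searched on the forward strand only, from 32 to 27 bases before the start of Il1a and from 31 to 26 bases before that of Il1b. This hexamer was present in 7.59% of 32851 promoter windows of the same length. The longest run shared by the Il1a and Il1b windows was GACTATAAAA, which includes it. The AP-1 motif TGANTCA was found in Il1a from 12 to 6 bases before the start and in Il1rn from 141 to 135 bases before the start, and it was present in 6.75% of windows on either strand. Of the other windows, that of Il18bp held the C/EBP motif TTGCNNAA from 49 to 42 bases before the start, as did 9.56% of windows. No motif was found in those of Il18 and Il1rap, nor in those at the other listed starts of Il1rn. The STAT motif TTCNNNGAA (7.02% of windows), a κB motif (0.356%) and an ISRE motif (2.98%) were found in none of the members' windows. These matches describe letters in the window only.

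Replicates correlated at Pearson r of 0.962 to 0.981 across the tested genes in the 4 groups. TPM values do not keep the number of reads, so the depth is unknown and counting error cannot be given. The summed level of 8 macrophage markers was high in every group but lower with C498, at 20345 ± 347 TPM (SD, n = 2) in NC, 16007 ± 96.5 in C498, 18205 ± 378 in LPS and 13314 ± 1264 in C498+LPS. Most of that fall was in Lyz2, which had a mean of 15986 TPM in NC, 11497 in C498, 13225 in LPS and 8536 in C498+LPS. Adgre1, Csf1r and Fcgr1 were also lower in both C498 samples than in both NC samples, Cd68, Itgam and Mertk overlapped, and Cd14 was higher. In C498+LPS, Adgre1, Csf1r, Fcgr1, Itgam and Lyz2 were lower in both samples than in both LPS samples, and Cd14 was higher. The part of these markers in the members' changes with C498 was not tested. The summed level of 8 fibroblast and mesothelial markers was 115 ± 17.1 TPM in NC, 128 ± 11.7 in LPS, 463 ± 58.6 in C498 and 514 ± 140 in C498+LPS. In bulk samples, fewer cells of a type and less RNA per cell cannot be told apart.

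Both IL-1 agonist genes rose strongly in LPS vs NC, Il1b the more. Il1a was at 52.91 and 39.77 TPM in the NC samples and at 1646.54 and 1420.75 TPM in the LPS samples. Il1b was at 19.11 and 15.94 TPM in NC and at 1626.17 and 1640.02 TPM in LPS. The groups were far apart for both genes, and in NC Il1a was the higher in each sample, whereas after LPS their order differed between the samples. On the log2(TPM + 1) scale, which understates the change of low genes, the change was 6.47 ± 0.135 (SE) for Il1b (adjusted p = 5.42e-07 by limma with Benjamini-Hochberg adjustment, as for every adjusted p below) and 5.03 ± 0.182 for Il1a (adjusted p = 6.3e-06). By the size of the change Il1b ranked 4 and Il1a 14 from the highest among the 12189 tested genes.

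The antagonist gene Il1rn also rose in LPS vs NC, but by less. It was at 87.97 and 75.31 TPM in NC and at 370.69 and 350.76 TPM in LPS, with no overlap. Its log2 change was 2.13 ± 0.108 (adjusted p = 2.75e-05), which placed it at rank 171 from the highest. The cytokine gene Il18 rose from 6.75 and 8.17 TPM to 18.79 and 26.40 TPM, a log2 change of 1.47 ± 0.281 (adjusted p = 0.00827). The call for Il18 rested on LPS replicate 2, without which the change was 1.23 with an adjusted p of 0.069.

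Il18bp and Il1rap did not pass in this comparison. Il18bp was at 57.25 and 62.95 TPM in NC and at 63.55 and 49.90 TPM in LPS, so that the groups overlapped. Its log2 change was −0.09 with a 95% interval from −0.44 to 0.25. Il1rap was at 4.51 and 2.32 TPM in NC and at 6.62 and 5.04 TPM in LPS. Its log2 change was 0.67 ± 0.277 (adjusted p = 0.115). The LPS samples were above the NC samples, which differed widely between themselves, and the change of Il1rap was 1.03 without NC replicate 1 (adjusted p = 0.0254) and 0.30 without NC replicate 2.

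In LPS vs NC, 4 of the 6 members were thus called higher (changed at least 2-fold with an adjusted p not above 0.05), beside 5.55% of all tested genes, and 0 were called lower, beside 6.68%. The median log2 change was 1.80 over the members and −0.17 over all tested genes. Centring each sample on its median gene left 4 members called higher, but it moved the median of all genes to −0.00054 and their calls from 677 higher and 814 lower to 853 higher and 530 lower.

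**Figure D1:**
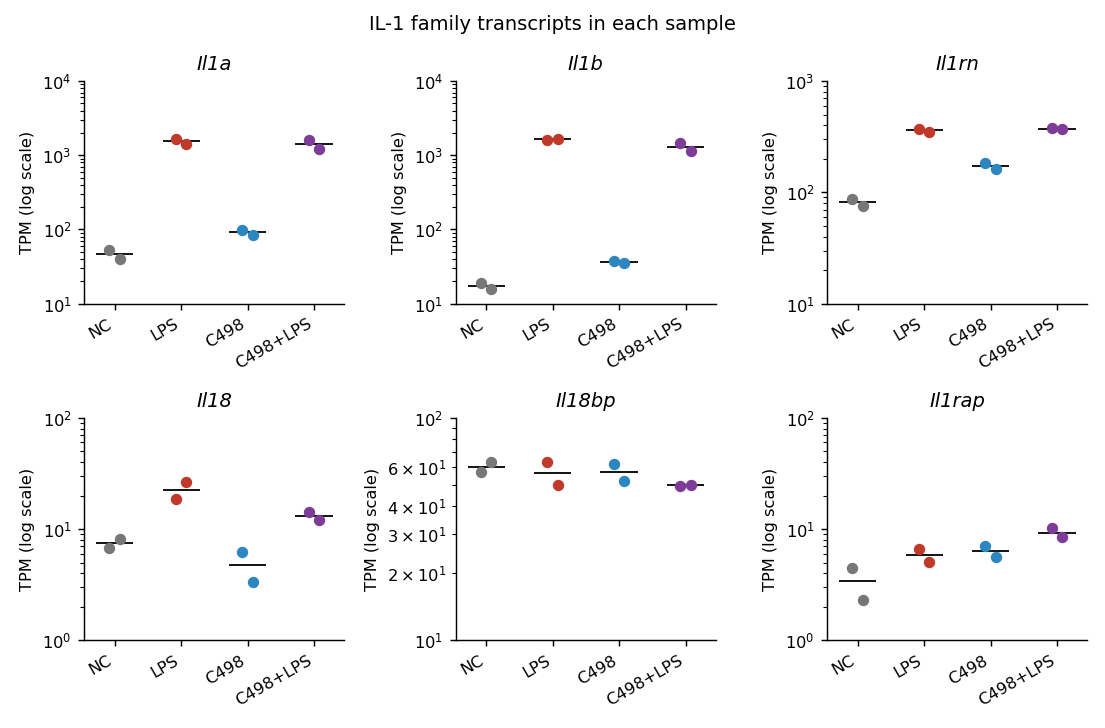
TPM of each member in each sample on a log axis, whose range differs between panels; points are samples and bars are group means (n = 2). Il1a, Il1b and Il1rn lie higher in C498 than in NC, the LPS and C498+LPS samples overlap for Il1a and Il1rn but not for Il1b, and Il18bp lies between 49.27 and 63.55 TPM in every sample.

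C498 without LPS raised 2 of the members. Il1b was at 37.27 and 35.13 TPM in the C498 samples, above both NC samples, and its log2 change was 1.01 ± 0.135 (adjusted p = 0.00453). Il1rn was at 184.15 and 161.51 TPM, again above both NC samples, and changed by 1.07 ± 0.108 (adjusted p = 0.00135). Il1a, at 99.13 and 84.04 TPM, changed by 0.98 ± 0.182 (adjusted p = 0.0147), a little under the fold threshold. The changes of these 3 genes lay close to that threshold, and small shifts decided the calls. Without NC replicate 2 the changes of Il1b and Il1rn were 0.89 and 0.96, and without C498 replicate 1 they were 0.97 and 0.98, so neither was called. Without NC replicate 1 the change of Il1a was 1.18 and it was called, as it was with quantile normalization (1.02, adjusted p = 0.0112). Centred on the median gene, Il1b and Il1rn changed by 0.89 and 0.95 and were not called.

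The other members were not called in C498 vs NC. Il18 was at 6.27 and 3.31 TPM in C498, both below the NC samples, with a log2 change of −0.59 ± 0.281 (adjusted p = 0.196), which was −0.97 without C498 replicate 1 and −0.21 without C498 replicate 2. Il1rap was at 6.97 and 5.64 TPM, both above the NC samples, with a change of 0.77 ± 0.277 (adjusted p = 0.107). Without NC replicate 1 that change was 1.13 and called (adjusted p = 0.0239), and without NC replicate 2 it was 0.40. Il18bp was at 62.08 and 51.77 TPM, overlapping NC, with a change of −0.08 and a 95% interval from −0.43 to 0.26. The 2 members called higher stand beside 5.64% of all tested genes, and the 0 called lower beside 1.36%. Their median log2 change was 0.87, against 0.014 for all tested genes. Centring moved the latter to −0.11, and the calls over all genes from 687 higher and 166 lower to 565 higher and 269 lower.

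In macrophages already exposed to C498, LPS again raised the same 4 members. In the C498+LPS samples Il1a reached 1602.71 and 1230.74 TPM, Il1b 1442.87 and 1136.71 TPM, and Il1rn 378.82 and 367.03 TPM, each above both C498 samples. The log2 changes against C498 were 3.93 for Il1a (adjusted p = 4.95e-05), 5.11 for Il1b (adjusted p = 5.74e-06) and 1.11 for Il1rn (adjusted p = 0.00113). Il18, at 14.23 and 12.17 TPM, lay above both C498 samples and changed by 1.34 ± 0.281 (adjusted p = 0.021). That last call was lost without C498 replicate 2 (0.96, adjusted p = 0.122) and without either C498+LPS sample (adjusted p = 0.116 and 0.0954). Il1b and Il1a ranked 6 and 15 from the highest.

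Il18bp, at 49.27 and 50.01 TPM in C498+LPS, lay just below the C498 samples, with a log2 change of −0.19 (adjusted p = 0.426). That change was −0.32 without C498 replicate 2 and 0.026 with centring. Il1rap, at 10.12 and 8.40 TPM, lay above the C498 samples, with a change of 0.49 (adjusted p = 0.27). The 4 members called higher stand beside 2.52% of all tested genes and the 0 called lower beside 3.13%. The median change was 1.22 over the members and −0.18 over all tested genes. With centring the latter was 0.038, and the calls over all genes went from 307 higher and 381 lower to 434 higher and 196 lower, with the 4 members still called higher.

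None of the 6 members was called in C498+LPS vs LPS, beside 5.39% of all tested genes called higher and 2.18% called lower. At an unadjusted p under 0.05 by limma there were 2 of 6, Il1b and Il18, a share close to that of all tested genes (3797 of 12189). Il1b changed by −0.35 with a 95% interval from −0.67 to −0.03 (adjusted p = 0.128), and both C498+LPS samples lay below both LPS samples. Without C498+LPS replicate 2 that change was −0.18. Il18 changed by −0.72 with an interval from −1.38 to −0.06 (adjusted p = 0.133), and its samples did not overlap either. For Il1a, whose groups overlapped, the change was −0.12 with an interval from −0.55 to 0.31. For Il1rn, whose C498+LPS samples straddled the higher LPS sample, it was 0.05 with an interval from −0.21 to 0.30. Il18bp changed by −0.18 (adjusted p = 0.467), with the C498+LPS samples within or just under the range of LPS, and by −0.35 without LPS replicate 2 and −0.0074 without LPS replicate 1.

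Il1rap had its highest levels in C498+LPS, above both LPS samples, with a change of 0.59 ± 0.277 (adjusted p = 0.198). A p that misses the threshold does not show that the levels were alike, and the intervals state the sizes that these samples leave possible. The median change was −0.15 over the members and 0.0065 over all tested genes.

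**Figure D2:**
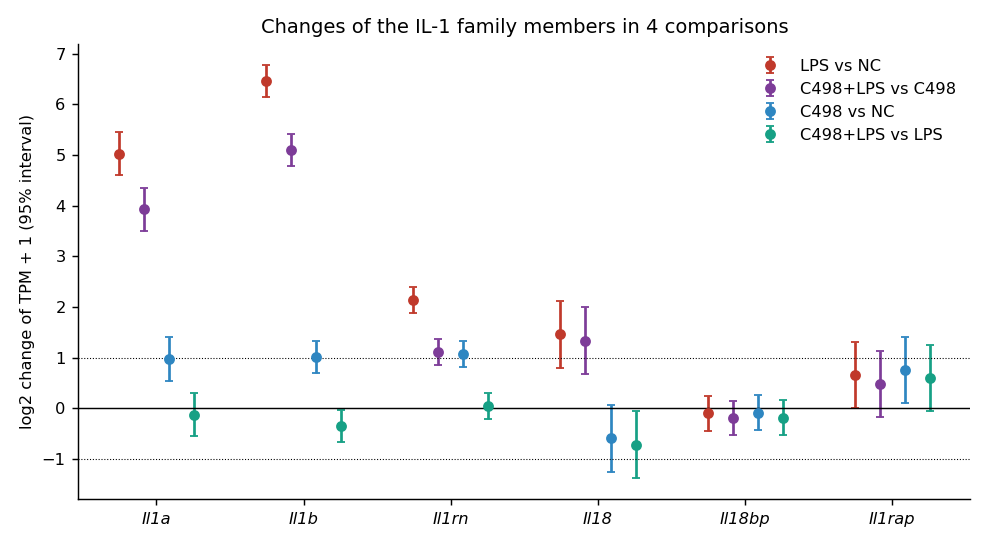
Log2 change of TPM + 1 for each member in 4 comparisons, with 95% intervals from the limma fit (n = 2 samples a group); dotted lines mark a 2-fold change. The LPS changes of Il1a, Il1b and Il1rn are smaller with C498 (3.93, 5.11 and 1.11) than without (5.03, 6.47 and 2.13), and the intervals of C498+LPS vs LPS include 0 for Il1a, Il1rn, Il18bp and Il1rap but not for Il1b and Il18.

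The test of the difference itself asked whether the log2 response to LPS was unequal with and without C498. The response was smaller with C498 by −1.36 ± 0.191 for Il1b (adjusted p = 0.0412) and by −1.03 ± 0.153 for Il1rn (adjusted p = 0.0492). By construction this difference is the change in C498+LPS vs LPS minus that in C498 vs NC. Those changes were −0.35 and 1.01 for Il1b, 0.05 and 1.07 for Il1rn, and −0.12 and 0.98 for Il1a. For Il1a the difference was −1.10 ± 0.258, which did not pass (unadjusted p = 0.00347 and adjusted p = 0.169 by limma). These values and those of the 4 comparisons come from the same 8 samples, so they are not separate evidence. The 2 members called lower stand beside 0.394% of all tested genes, and the 0 called higher beside 0.0738%. Over all tested genes, this excess of lower calls was not kept without NC replicate 2 or without either C498+LPS sample.

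The calls of this difference lay near the threshold. Leaving out any sample but NC replicate 1 ended both calls, and the adjusted p reached 0.257 for Il1b without C498 replicate 1 and 0.264 for Il1rn without LPS replicate 1. The size moved less, from −1.53 to −1.19 for Il1b and from −1.14 to −0.91 for Il1rn over all alternatives. For Il18 the difference was −0.13, for Il18bp −0.10 and for Il1rap −0.17, with adjusted p of 0.89 to 0.93. The median difference was −0.60 over the members and −0.026 over all tested genes.

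The balance between antagonist and agonist transcripts followed LPS. In NC the level of Il1rn was 4.60 and 4.72 times that of Il1b, and in C498 it was 4.94 and 4.60 times. After LPS the ratio was 0.228 and 0.214, and in C498+LPS it was 0.263 and 0.323. On the log2 scale the mean was 2.22 in NC, 2.25 in C498, −2.18 in LPS and −1.78 ± 0.211 (SD, n = 2) in C498+LPS. The groups with and without LPS were thus on opposite sides of equal levels, and the 2 groups without LPS overlapped. Both C498+LPS samples lay above both LPS samples. The ratios are a description, and no test of them was run.

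The ratio of Il1rn to Il1a also lay on opposite sides of equal levels with and without LPS, at 1.66 and 1.89 in NC, 1.86 and 1.92 in C498, 0.225 and 0.247 in LPS, and 0.236 and 0.298 in C498+LPS, the last 2 groups overlapping. Among the agonists, Il1b was at 0.361 and 0.401 of the level of Il1a in NC and at 0.376 and 0.418 in C498, and it approached Il1a in LPS (0.988 and 1.15) and in C498+LPS (0.900 and 0.924). Il18bp exceeded Il18 in all samples. Its ratio to Il18 was 8.48 and 7.71 in NC, 9.90 and 15.6 in C498, 3.38 and 1.89 in LPS, and 3.46 and 4.11 in C498+LPS, so that the C498 groups lay above their counterparts without C498.

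**Figure D3:**
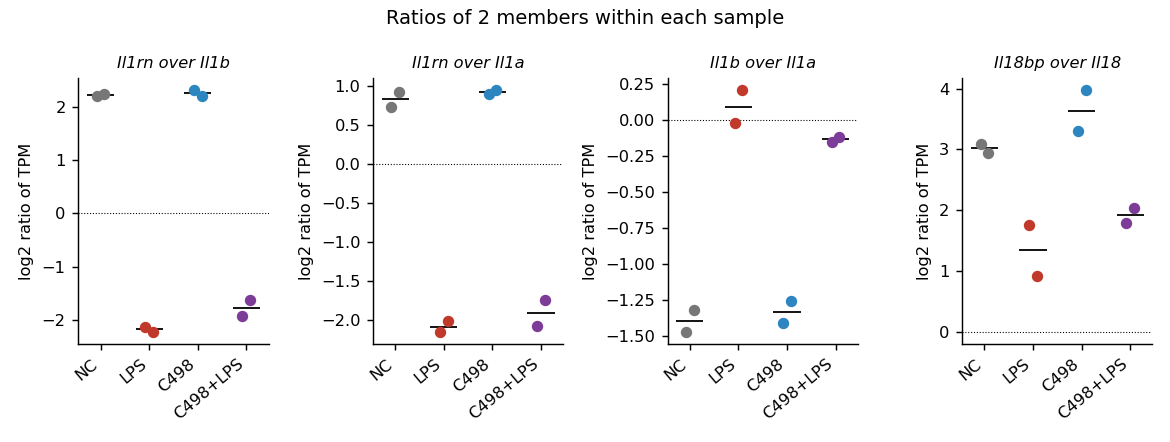
Log2 ratio of the TPM of 2 members within each sample; points are samples, bars are group means (n = 2) and dotted lines mark equal levels. Il1rn exceeds Il1b and Il1a in NC and C498 and is below both in LPS and C498+LPS, and Il18bp exceeds Il18 in every sample.

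Within each sample the order of the members changed in the same way. Il1rn was the highest of the 6 in the NC and C498 samples, with 36.8% to 47.3% of their summed TPM, and the third in the LPS and C498+LPS samples, with 9.93% to 13.1%. The 6 genes together made up 0.0204% to 0.0396% of all TPM in the samples without LPS and 0.281% to 0.373% in those with LPS. The order of Il1a and Il1b differed between the 2 LPS samples, whereas Il1a was above Il1b within each C498+LPS sample, although the ranges of the 2 genes over those samples overlapped. Il18 and Il1rap were the lowest in every sample, and their order was Il18 above Il1rap in NC, LPS and C498+LPS and the reverse in C498.

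The genes whose pattern over the 8 samples was most like that of a member were found by Pearson r of log2(TPM + 1), as a description in which the points share the 4 groups. For Il1a these were Ifi205 (r = 0.999), from a family of closely similar genes between which reads may be split, Il1b (0.998) and Zc3h12a (0.996), the gene of the RNase Regnase-1. For Il1b they were Ifi205 and Gm16685 (both 0.999) and Il1a. Il1rn was most like Ccl3, a chemokine gene (0.997), Nfkbiz (0.996) and Stk40 (0.996). Il18 was most like AW112010 (0.977), Abracl (0.976) and Rbpms (0.967), and Il1rap most like Gpbp1 (0.989), Rai14 (0.987) and Gnai3 (0.986). The likeness was lowest for Il18bp, with Zfp82 (0.935), Apoo-ps (0.926) and Nanp (0.905).

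Of the other ligands of the family, 6 were in the table and 2 were tested. Il36g, which encodes an agonist of the IL-36 receptor, was at 1.87 and 1.13 TPM in NC and rose to 5.20 and 7.23 TPM in LPS (log2 change 1.53, adjusted p = 0.00821, or 0.0621 without LPS replicate 2). In C498+LPS it was at 2.55 and 1.35 TPM, lower than in LPS by a log2 change of −1.31 (adjusted p = 0.0242). That call was lost without either LPS sample, either C498 sample or C498+LPS replicate 2, with adjusted p of up to 0.148. Il33, an alarmin made mainly by stromal and barrier cells, was at 0.59 and 0.42 TPM in NC, 1.81 and 1.44 in LPS, 2.81 and 3.79 in C498, and 8.74 and 11.27 in C498+LPS.

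No group overlapped another for Il33. In LPS vs NC its change was 0.80 (adjusted p = 0.0387), under the fold threshold on the log2(TPM + 1) scale. It was called higher in C498 vs NC (1.51, adjusted p = 0.00768), in C498+LPS vs LPS (2.06, adjusted p = 0.00201) and in C498+LPS vs C498 (1.36, adjusted p = 0.0105). The first of these was lost without C498 replicate 2 (adjusted p = 0.0605) and was 2.49 with a pseudocount of 0.1, and the last call was lost without C498 replicate 1 (adjusted p = 0.079) or C498+LPS replicate 2 (adjusted p = 0.0688). Il36b, Il36rn and Il1f10 were listed at 0 in every sample, and Il36a did not exceed 0.76 TPM.

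Of 9 receptor genes of the family, 2 were tested. Il1r1, the signalling receptor for IL-1α and IL-1β, was at 5.86 and 3.50 TPM in NC, 5.69 and 5.13 in LPS, 14.83 and 17.72 in C498, and 9.12 and 14.20 in C498+LPS. Its levels overlapped between NC and LPS and were higher in every C498 and C498+LPS sample. The log2 change was 1.63 in C498 vs NC (adjusted p = 0.00999) and 0.95 in C498+LPS vs LPS (adjusted p = 0.0539). The former call was lost without C498 replicate 1 (adjusted p = 0.0701) or C498 replicate 2 (adjusted p = 0.0891). Il1rl2, the IL-36 receptor gene, was called in no comparison.

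The decoy receptor gene Il1r2 was at 0.24 to 1.74 TPM, and the IL-18 receptor genes Il18r1 and Il18rap were at 0.16 to 1.79 and 0.15 to 1.51 TPM. These 3 were under the mean level required for testing. They lie with Il1r1, Il1rl1 and Il1rl2 in a cluster of 6 genes at chr1:40074079-40551705.

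The fibroblast and mesothelial markers were higher with C498 than without it, as were Il1r1 and Il33. Of 8 such markers, 7 were higher in both C498 samples than in both NC samples, and 8 of 8 were higher in both C498+LPS samples than in both LPS samples. Of all tested genes, 29.3% and 31.9% separated in these ways. Among the 6 tested, 5 were called higher in C498 vs NC (beside 5.64% of all tested genes) and 4 in C498+LPS vs LPS (beside 5.39%), while Lum did not exceed 0.28 TPM. Col1a1, which encodes a chain of type I collagen, was at 77.53 and 53.89 TPM in NC and at 246.91 and 294.20 TPM in C498. Il33 was also higher with LPS, at a mean of 0.505 TPM in NC and 1.625 in LPS, and 3.3 in C498 and 10.005 in C498+LPS. The summed markers were at 115, 128, 463 and 514 TPM in these groups. The part of fibroblasts and mesothelial cells in the levels of Il1r1 and Il33 was not tested.

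**Figure D4:**
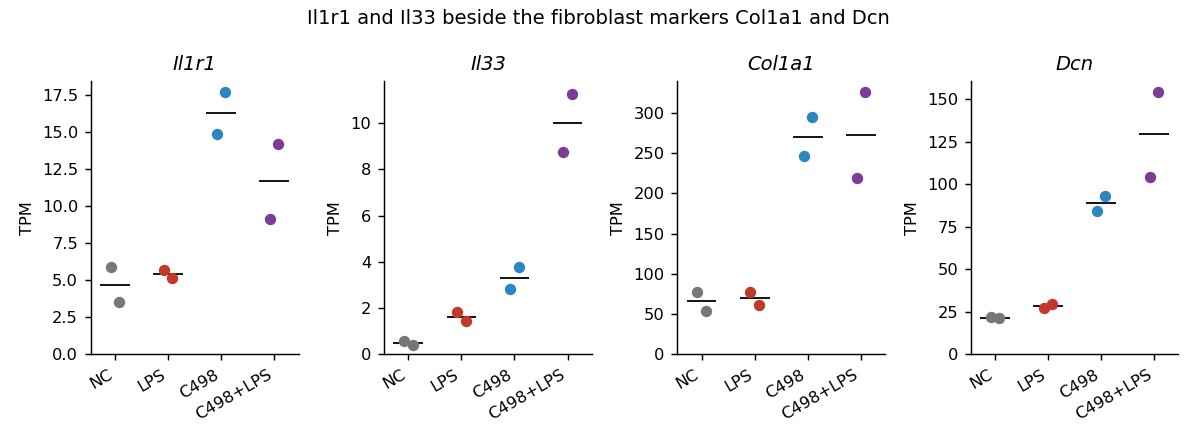
TPM of Il1r1 and Il33 beside the fibroblast markers Col1a1 and Dcn in each sample; points are samples and bars are group means (n = 2), with a separate axis from 0 for each gene. All 4 genes lie higher in both C498 samples than in both NC samples, and higher in both C498+LPS samples than in both LPS samples.

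Neutrophils are another source of IL-1 transcripts. The summed level of 10 neutrophil markers was 244 and 263 TPM in NC, 226 and 245 in LPS, 144 and 136 in C498, and 157 and 129 in C498+LPS, with S100a8, Mmp8 and Csf3r making up most of it. Ngp was listed at 0 in every sample, and S100a9, Ltf and Cxcr2 did not exceed 0.86 TPM. Since S100a9 was near 0 beside S100a8 at a mean of 82.8 TPM, although neutrophils make both, what this sum measures is in doubt. Il1b and Il1rn were higher in C498 than in NC while this sum was lower. The part of neutrophils in the levels of the members was not tested.

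Among 21 genes of signal transduction below the receptors, all of which were tested, 6 were called higher and 1 lower in LPS vs NC, beside 5.55% and 6.68% of all tested genes. The largest changes were of Peli1 (2.66, adjusted p = 0.000628), a ubiquitin ligase gene, Nfkb1 (2.08, adjusted p = 3.76e-05) and Nfkbia (2.07, adjusted p = 4.01e-05), which encodes the NFκB inhibitor IκBα. Peli2 fell by 1.36 (adjusted p = 0.00251). In C498+LPS vs C498 the same 3 genes, Nfkb1 (1.64), Peli1 (1.47) and Nfkbia (1.45), were the only ones called, all higher, with adjusted p of 0.000276 to 0.014. Of all tested genes, 2.52% were called higher and 3.13% lower in that comparison. The call of Peli1 there was lost without any of the 4 samples compared, with adjusted p of up to 0.117.

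In C498+LPS vs LPS, 2 transducers were called lower and 0 higher, beside 2.18% and 5.39% of all tested genes. Irak3, whose product restrains IL-1 and Toll-like receptor signalling, was at 101.08 and 93.59 TPM in LPS and at 49.47 and 36.85 TPM in C498+LPS (−1.17, adjusted p = 0.00671). Ikbkg, which encodes the IKK subunit NEMO, changed by −1.14 (adjusted p = 0.0109). Both calls were lost without LPS replicate 1 (adjusted p of 0.0642 and 0.0908) or C498+LPS replicate 2 (0.0537 and 0.0914), and that of Irak3 also without LPS replicate 2 (0.0528). None of the 21 was called in C498 vs NC by limma, although 10 had an unadjusted p under 0.05 (3898 of the 12189 tested genes did), and none in the difference of LPS responses, where 8 did (1351 of all tested genes). The list's median log2 change was 0.30 in LPS vs NC, −0.010 in C498+LPS vs C498, 0.29 in C498 vs NC and 0.024 in C498+LPS vs LPS, beside −0.17, −0.18, 0.014 and 0.0065 over all tested genes.

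Of 18 genes for processing and release of IL-1 and IL-18, 16 were tested. In LPS vs NC, 3 were called higher, beside 5.55% of all tested genes, and 1 lower, a share close to the 6.68% of all tested genes. Nlrp3, the sensor of the best known inflammasome, was at 14.99 and 8.71 TPM in NC, 148.99 and 126.73 in LPS, 19.93 and 24.91 in C498, and 141.24 and 114.57 in C498+LPS. Its log2 change was 3.47 in LPS vs NC (adjusted p = 0.00012) and 2.46 in C498+LPS vs C498 (adjusted p = 0.00127). In C498+LPS vs LPS its samples overlapped, and the change was −0.11 with a 95% interval from −0.69 to 0.47. In C498 vs NC the change of 0.90 was under the fold threshold (adjusted p = 0.0492), and it was 1.26 and called without NC replicate 1 but 0.54 without NC replicate 2.

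The other genes called higher in LPS vs NC were Mefv, which encodes pyrin (1.49, adjusted p = 0.00173), and Casp4, which encodes the intracellular LPS sensor caspase-11 (1.29, adjusted p = 0.000157). Pycard, which encodes the adaptor ASC, was at 204.22 and 278.07 TPM in NC and was lower in every other sample, at 89.16 and 112.15 in LPS, 94.01 and 117.24 in C498, and 59.70 and 73.18 in C498+LPS. It fell by 1.24 in LPS vs NC (adjusted p = 0.00404) and by 1.17 in C498 vs NC (adjusted p = 0.0107). The latter call was lost without NC replicate 2, where the change of −0.95 was under the fold threshold, and without C498 replicate 1 (−1.02, adjusted p = 0.0948) or C498 replicate 2 (−1.33, adjusted p = 0.0526).

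Casp1, which encodes the enzyme that cuts pro-IL-1β and pro-IL-18, was called in no comparison. It was at 127.81 and 122.56 TPM in NC, 174.29 and 161.16 in LPS, 113.19 and 104.83 in C498, and 134.38 and 122.73 in C498+LPS. Its change in C498+LPS vs LPS was −0.38 (adjusted p = 0.034), under the fold threshold. Nlrp1b, which was not tested, was at 1.15 and 0.57 TPM in NC and did not exceed 0.10 TPM with LPS.

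In C498+LPS vs LPS, 2 processing genes were called lower, beside 2.18% of all tested genes. These were Mefv (−1.41, adjusted p = 0.00402) and Txnip (−1.36, adjusted p = 0.000598), whose product binds thioredoxin and has been linked to NLRP3. Txnip was at 89.08 and 92.66 TPM in NC, 67.95 and 67.68 in LPS, 44.88 and 43.12 in C498, and 27.27 and 24.25 in C498+LPS, with no overlap between groups. It was also called lower in C498 vs NC (−1.03, adjusted p = 0.00115). No processing gene was called in the difference of LPS responses by limma, where 5 had an unadjusted p under 0.05, as had 1351 of the 12189 tested genes. The list's median log2 change was 0.11 in LPS vs NC, −0.21 in C498+LPS vs C498, −0.16 in C498 vs NC and −0.36 in C498+LPS vs LPS. Over all tested genes these medians were −0.17, −0.18, 0.014 and 0.0065.

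**Figure D5:**
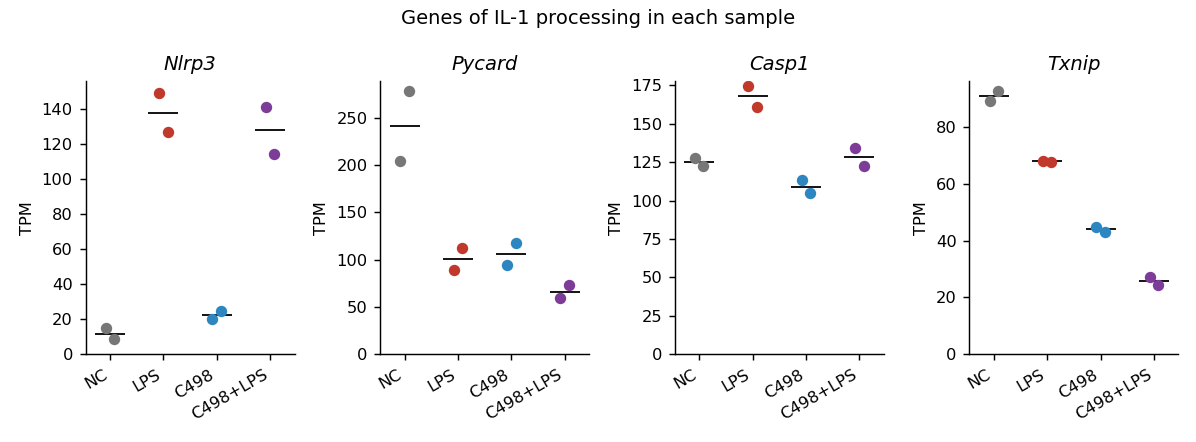
TPM of Nlrp3, Pycard, Casp1 and Txnip in each sample; points are samples and bars are group means (n = 2), with a separate axis from 0 for each gene. Nlrp3 lies between 8.71 and 24.91 TPM without LPS and between 114.57 and 148.99 TPM with LPS, whereas Pycard is highest in the 2 NC samples and Txnip is lowest in the 2 C498+LPS samples.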

How the data were processed

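RNA-seq of 8 samples of mouse peritoneal macrophages, in 4 groups of 2, was analysed. Per the submitters' processing notes the tools were fastp for read filtering, HISAT2 for alignment, StringTie for assembly and RSEM for quantification. Versions, genome build, annotation and strand setting are not given in the sources used here. The deposited table holds TPM values per gene and sample with the gene length, and also the authors' mean TPM per group, which was not used. TPM removes depth, so no count test was run, although the study used one, and depth and counting error are unknown.

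Values were transformed as log2(TPM + 1). Genes were kept where their mean TPM reached 1, which left 12189, and were fitted together in limma 3.58.1 (R 4.3.3), with 1 coefficient per group and a variance trend, and Benjamini-Hochberg adjustment ran over all of them within each comparison. Called means changed at least 2-fold with an adjusted p not above 0.05, as in the study. The steps were tested on simulated data. Ratios, markers and likeness were computed in pandas 2.3.3 with numpy 2.4.6, and plots drawn in matplotlib 3.10.9. Promoter windows were matched by symbol from RefSeq on GRCm38.p6, and all 6 members matched. The motif TATAAA was added after the windows were read.

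The members and lists were chosen with earlier results of these data known. Named were the 6 members in every comparison, the 3 largest called changes per list and direction, and the receptor and inflammasome genes acting directly on the members. Col1a1, Cd14 and other markers were named after their values were seen. Of 4 other marker lists, the summed levels were 2.46 to 6.95 TPM for T cells, 3.65 to 13.78 for B cells, 8.57 to 22.54 for mast cells and 0.60 to 2.12 for eosinophils. Alternatives were a pseudocount of 0.1, no filter, a mean TPM of at least 5, centring, quantile normalization, only the groups compared, no variance trend, a replicate block, no fold threshold and leaving out each sample.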

Additional observations from a re-analysis of the deposited data

Results flagged for a closer look

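The log2 response to LPS was smaller with C498 than without by the test of the difference itself for 2 members and 1 macrophage marker. The difference was −1.36 for Il1b, −1.03 for Il1rn and −1.001 for Cd14, which encodes a co-receptor for LPS (adjusted p of 0.0412, 0.0492 and 0.0214 by limma). Cd14 was at 235.47 and 251.96 TPM in NC, 1351.97 and 1250.47 in LPS, 686.40 and 663.28 in C498 and 1796.62 and 1794.06 in C498+LPS, and like Il1b and Il1rn it was higher in C498 than in NC in both samples. Its level after LPS was thus also higher with C498. The log2 change was 1.47 in C498 vs NC and 0.47 in C498+LPS vs LPS (adjusted p of 0.000121 and 0.00926 by limma). The call of Cd14 lay at the fold threshold and ended when any sample other than NC replicate 2 was left out, with adjusted p of up to 0.149. It also ended with no filter (0.0634), with centring (0.146) and with no variance trend (0.108).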

How the results depend on the processing

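With 2 samples a group and no known depth, calls near a threshold were fragile, and the 5 comparisons of the members held unequally. When 1 sample was left out, 207 of 240 member changes kept their direction and side of the threshold, 22 lost the call, 3 gained it and 8 changed sign. Under the other alternatives the numbers were 218, 11, 2 and 3 of 234. For the other genes named, they were 254, 30, 1 and 3 of 288 and 274, 7, 0 and 0 of 281.

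The members called ranged, with 1 sample left out, from 3 to 5 in LPS vs NC, from 3 to 4 in C498+LPS vs C498, from 0 to 4 in C498 vs NC (4 without NC replicate 1, 0 without NC replicate 2 or C498 replicate 1) and from 0 to 2 in the difference of LPS responses (0 without any sample other than NC replicate 1). In C498+LPS vs LPS there were 0 in every case. In C498 vs NC, 0 were called with centring and 1 with only the groups compared. In the difference, 0 were called with no filter, 1 with centring, 1 with quantile normalization and 0 with no variance trend. The call of Il18 in C498+LPS vs C498 also ended with no filter (adjusted p = 0.063 by limma) and with only the groups compared (0.0576). With only the groups compared, the calls of Il1r1 (0.0639) and Pycard (0.0608) in C498 vs NC and of Il36g in C498+LPS vs LPS (0.0579) ended, and that of Il36g also with no filter (0.0729).

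All genes called with 1 sample left out ranged from 1182 to 1641 in LPS vs NC, from 366 (without C498 replicate 1) to 720 in C498+LPS vs C498, from 470 (without LPS replicate 2) to 956 in C498+LPS vs LPS, from 345 (without C498 replicate 1) to 1381 (without NC replicate 1) in C498 vs NC, and from 9 (without LPS replicate 1) to 92 (without NC replicate 1) in the difference. The reported counts were 1491, 688, 923, 853 and 57. Without the fold threshold they were 3609 in LPS vs NC, 1980 in C498+LPS vs C498, 1886 in C498 vs NC and 2045 in C498+LPS vs LPS. With a mean TPM of at least 5 there were 566 in C498 vs NC and 594 in C498+LPS vs LPS, where fewer genes were tested. With only the groups compared there were 379 in C498 vs NC. In the difference there were 18 with no filter and 12 with no variance trend. Except where the construction shows it, the cause was not tested. With 1 TPM added, the log2 ratio of Il1rn to Il1b in NC was 2.16 and that of Il18bp to Il18 in NC was 2.86.

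The signs that changed were of changes near 0. Il18bp was at 0.078 with centring and 0.081 without LPS replicate 2 in LPS vs NC, 0.026 with centring in C498+LPS vs C498, 0.048 without C498 replicate 2 in C498 vs NC, and 0.074 without LPS replicate 1 and 0.031 without C498 replicate 1 in the difference. Il1a was at 0.067 without C498+LPS replicate 2 and Il1rn at −0.028 with centring in C498+LPS vs LPS. In the difference, Il18 was at 0.11 without LPS replicate 2 and 0.25 without C498 replicate 1, and Il1rap at 0.19 without NC replicate 2. With 1 sample left out, Il18bp thus ranged from −0.26 to 0.081 in LPS vs NC, from −0.21 to 0.048 in C498 vs NC and from −0.27 to 0.074 in the difference, Il1a from −0.31 to 0.067 in C498+LPS vs LPS, and in the difference Il18 from −0.50 to 0.25 and Il1rap from −0.54 to 0.19. Il1r1 was at −0.099 without NC replicate 2 in LPS vs NC, and Nlrp3 at 0.0054 without LPS replicate 1 and 0.039 without C498+LPS replicate 2 in C498+LPS vs LPS. Their ranges were −0.099 to 0.51 and −0.26 to 0.039.

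The replicate numbers were shared by the groups, but the labels do not say that they mark a pairing, and the replicate differences of pairs of groups correlated at 0.0397 to 0.168 across genes. With the replicate block, 1537, 736, 950, 927 and 84 genes were called, and 4, 4, 0, 2 and 3 members. Il1a was then called in the difference (adjusted p = 0.0161 by limma).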
